A study of Rattus norvegicus with 6 samples.

Results

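Glutathione synthesis and its cysteine supply were examined in the renal cortex of rats through 7 genes: Slc7a11, Cbs, Cth, Gclc, Gclm, Gss and Oplah. They were chosen by gene symbol, as every probe other than a control spot whose RefSeq transcript belongs to one of them, and this gave 11 probes of the 61537 on the array, or 7 of the 15645 gene symbols it measures. RNA came from the outer kidney of male Sprague-Dawley rats bought at 5 weeks of age, with 1 Agilent 1-colour array per animal. For 4 weeks, 3 animals were given the vehicle, corn oil, and the other 3 a daily dose of chlorothalonil, a fungicide with a chlorinated aromatic dinitrile structure, of 500 mg/kg. Chlorothalonil replicate 3 has conflicting labels, since its source name gives ethylenediamine dihydrochloride and its title, treatment and dose give chlorothalonil. It is counted here as chlorothalonil. None of the 6 genes that could be tested passed an adjusted p of 0.05 between the groups, where 3.12% of all features of the gene table did, so a count of 0 is near that background. Of 9 measured genes of glutathione reduction and export, 5 rose on the same arrays, where 1.3% of all features did. That list was chosen with earlier results of these data known, so its share is not independent of them. Of these 5, only the call of Abcc4, an exporter, held whichever array was left out. Gclc varied more among the 3 corn oil animals than 98.6% of tested probes.

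Glutathione is made from glutamate, cysteine and glycine in 2 steps. Glutamate-cysteine ligase, a catalytic subunit (Gclc) with a modifier subunit (Gclm), joins the first pair and sets the pace, and glutathione synthetase (Gss) adds glycine. Cysteine enters as cystine through the cystine-glutamate exchanger, whose transport subunit is Slc7a11, or is made from homocysteine by cystathionine beta-synthase (Cbs) and cystathionine gamma-lyase (Cth). Oplah, 5-oxoprolinase, returns 5-oxoproline from glutathione breakdown to glutamate. The proximal tubule turns over much glutathione at its brush border, and Gclc, Gclm and Slc7a11 are textbook targets of the transcription factor NRF2, which binds antioxidant response elements, with Slc7a11 also under ATF4.

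Promoter sequence is shown for both ligase subunits, which had the widest spread between animals among the tested members, and for Gstp1, a glutathione S-transferase that rose. The RefSeq promoter table of assembly GRCr8 held 6 of the 7 members. The 250 bases before each transcription start are printed 5′ to 3′ along the gene, with any match to TGACNNNGC, the core of the antioxidant response element, in capitals. They lie at chr8:87510226-87510475 on the plus strand for Gclc, chr2:213031885-213032134 on the plus strand for Gclm and chr1:210769706-210769955 on the minus strand for Gstp1.
Gclc: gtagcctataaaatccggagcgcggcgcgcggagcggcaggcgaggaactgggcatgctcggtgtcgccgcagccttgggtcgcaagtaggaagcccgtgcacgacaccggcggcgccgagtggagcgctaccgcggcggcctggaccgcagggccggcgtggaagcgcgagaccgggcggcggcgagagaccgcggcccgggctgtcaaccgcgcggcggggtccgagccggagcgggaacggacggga
Gclm: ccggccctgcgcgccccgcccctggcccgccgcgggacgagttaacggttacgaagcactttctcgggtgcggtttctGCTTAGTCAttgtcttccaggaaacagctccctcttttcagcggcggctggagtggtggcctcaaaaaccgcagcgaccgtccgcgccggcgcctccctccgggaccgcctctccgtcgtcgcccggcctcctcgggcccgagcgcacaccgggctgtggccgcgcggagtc
Gstp1: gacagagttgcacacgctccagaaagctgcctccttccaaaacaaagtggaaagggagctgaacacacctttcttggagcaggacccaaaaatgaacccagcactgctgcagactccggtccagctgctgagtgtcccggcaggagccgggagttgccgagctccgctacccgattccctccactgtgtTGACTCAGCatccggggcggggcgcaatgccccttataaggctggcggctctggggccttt
On either strand of the 300-base windows, which run 250 bases before to 50 bases after the start, TGACNNNGC occurred in 1 of 6 members, in 4 of 11 NRF2 targets outside glutathione synthesis and in 4038 of 33469 promoters, or 12.1%. The member was Gclm, where the match TGACTAAGC lay on the opposite strand, 164 to 172 bases before the start. In Gstp1 the match TGACTCAGC lay on the gene's strand, 53 to 61 bases before the start. Both motifs searched for ATF4, TTGCATCA and TGATGNAA, occurred in 0 of 6 members and in 0.795% and 3.98% of all promoters. A match in so short a window is a description of letters and shows no binding.

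Of the probes other than controls, 62.1% to 67.8% per array were well above background, and no probe was saturated. The groups lay on separate slides with separate scan days, so slide and treatment cannot be told apart in any value below. Of 10 spike-in probes, 9 read lower on the chlorothalonil slide, with log2 differences from −0.32 to 0.05. Defining markers of the labelled tissue were present: 10 of 10 proximal tubule, 5 of 6 loop of Henle and distal tubule and 5 of 5 podocyte markers passed the filter on dim probes. None of the markers of these types, of the collecting duct, endothelium, macrophages, lymphocytes or red blood cells passed the test, although 5 of 5 red blood cell markers had an unadjusted limma p under 0.05, with a median log2 fold change of 0.27. Slc4a1 is on both the red blood cell and the collecting duct list, with the largest log2 fold change of each, 0.73. The summed signal of the 5 red blood cell markers, relative to the 75th percentile, was 482 to 502 with corn oil and 567 to 613 with chlorothalonil, and its part in the values below was not tested. In bulk tissue, fewer cells of a type and less RNA per cell cannot be told apart.

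Signals are given as log2 of the processed signal relative to the array's 75th percentile, called the log2 signal, so that 0 is that percentile. Values of the 3 animals of a group follow their replicate numbers. A probe entered the limma test where either group had it well above background on every array, and p-values were Benjamini-Hochberg adjusted over all 39862 such probes. This kept 8 of the 11 member probes and 6 of the 7 genes, Slc7a11 being the gene without a kept probe. At an adjusted p of 0.05, 0 of the 8 passed, where 2.67% of all tested probes did, 1.24% higher and 1.43% lower with chlorothalonil. Before adjustment, p was under 0.05 for 1 of the 8 and for 19.2% of all tested probes. With 1 probe per gene, that was 0 of 6 members and 19.7% of features. The arrays of the groups did not overlap for 2 of the 8, a Cbs probe and Oplah, against 27.1% of all tested probes. The median log2 fold change of the 8 was 0.28, against 0.01 over all tested probes, and it was 0.13 without corn oil replicate 1.

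**Figure D1:**
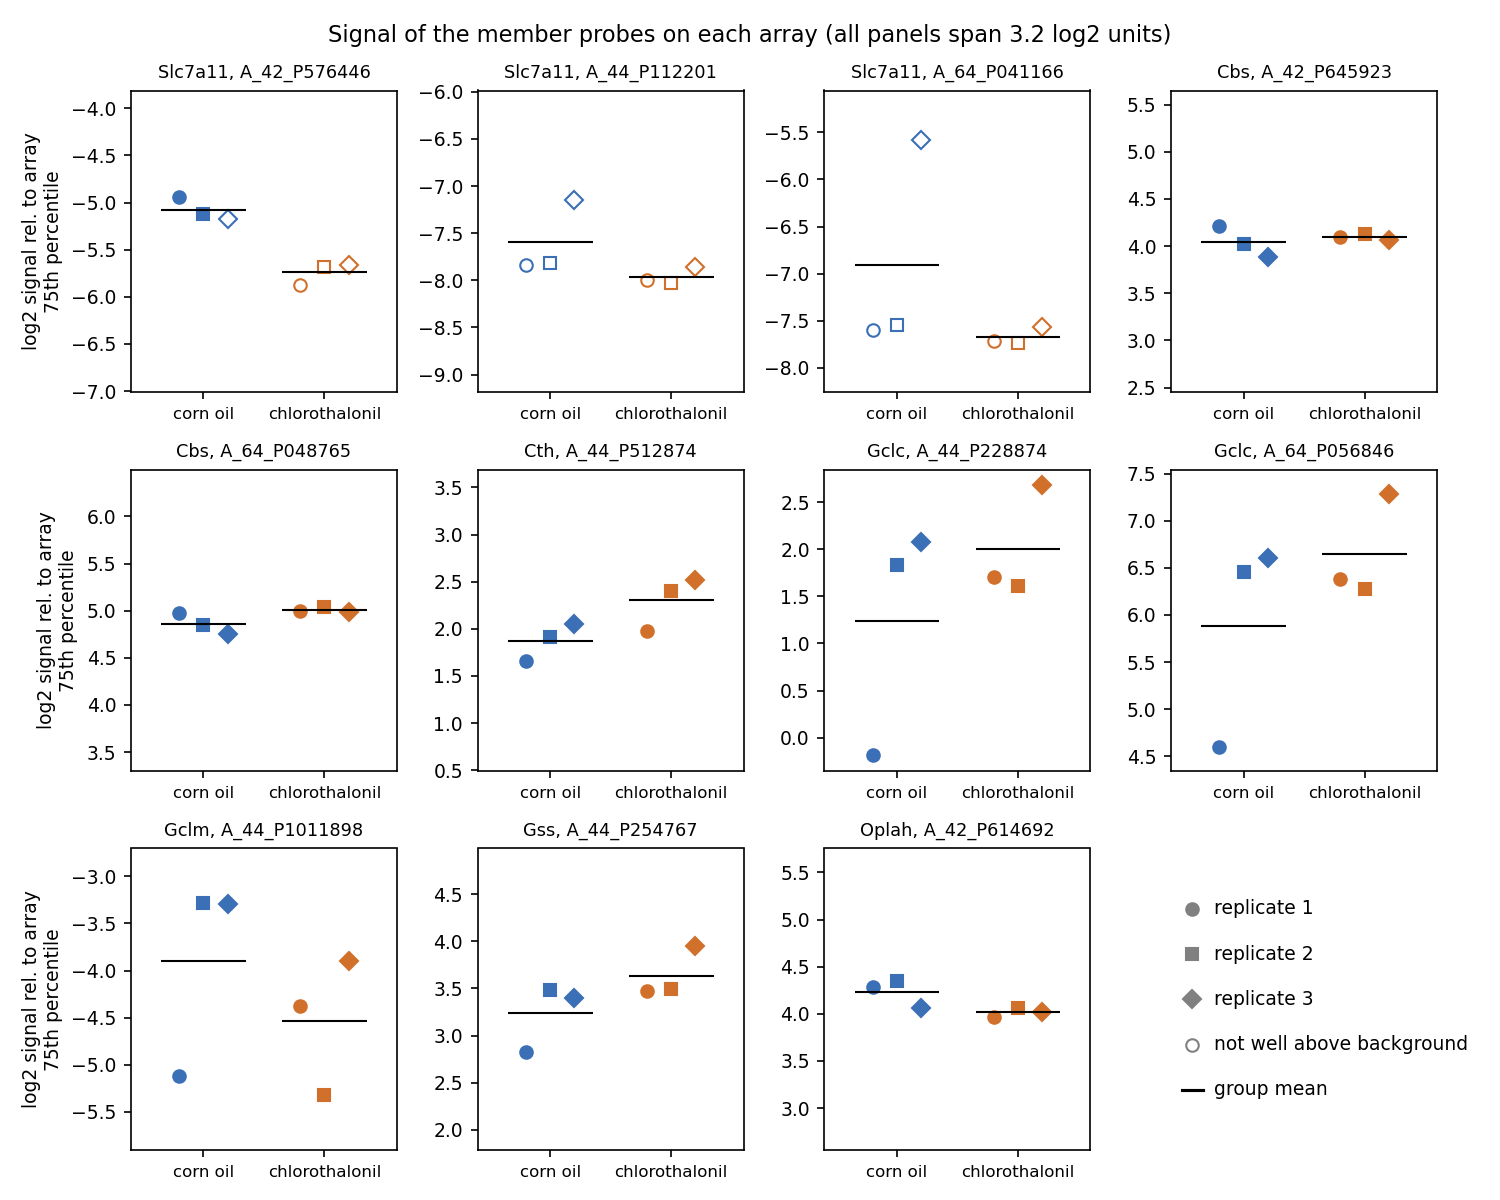
Log2 signal relative to the array's 75th percentile (vertical axis) of all 11 member probes in the corn oil and chlorothalonil arrays, with 1 point per animal, a bar at the group mean and open symbols where a probe was not well above background. Panels have the same span but different centres. The 2 Gclc probes show the same order of animals, with corn oil replicate 1 lowest, and the Cbs and Oplah points lie close together.

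The cystine exchanger Slc7a11 was dim in both groups. Its probe A_42_P576446 read 29.2, 27.5 and 25.8 units of processed signal with corn oil and 15.2, 18.1 and 16.6 with chlorothalonil, where the spots were 1.29 to 1.61 times as bright as their surroundings. Only corn oil replicates 1 and 2 were well above background. The other 2 probes, A_44_P112201 and A_64_P041166, were not well above background on any of the 6 arrays, with processed signals of 3.49 to 6.55 and 4.24 to 19.4. The first probe had mean log2 signals of −5.08 with corn oil and −5.74 with chlorothalonil. Since 1 corn oil array and all 3 chlorothalonil arrays were not well above background, neither a reliable fold nor an order of the arrays can be read from it. A fit with no filter on dim probes, which takes such signals as measured, gave −0.66 ± 0.11 (SE, n = 3 per group). Its limma adjusted p was 0.0985, and its SE does not cover the uncertainty of signals so near the background. The spike-in probes next above and next below it in brightness, at mean log2 signals of −3.38 and −6.98 with corn oil, differed by −0.32 and −0.25 between the slides, and the part of the slide in the Slc7a11 value was not tested. Slc3a2, the heavy chain that carries Slc7a11 to the membrane and was chosen after its values were seen, was bright, at 4.53 ± 0.09 (SD, n = 3) with corn oil and 4.33 ± 0.12 with chlorothalonil, with a limma adjusted p of 0.287.

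The transsulfuration enzymes were well measured, and neither passed the test. The brighter Cbs probe, A_64_P048765, had log2 signals of 4.97, 4.85 and 4.75 with corn oil and of 4.997, 5.04 and 4.98 with chlorothalonil. The chlorothalonil arrays thus lay just above the corn oil ones. The log2 fold change was 0.15 ± 0.08 (SE, n = 3 per group) with a limma adjusted p of 0.36, and its 95% interval covers 0.973-fold to 1.27-fold. The other Cbs probe, A_42_P645923, gave 0.06 ± 0.10, with an interval from 0.883-fold to 1.23-fold and overlapping groups. The SD of Cbs over the chlorothalonil arrays was 0.03 on both probes, with 6.62% and 7.20% of tested probes lower, and over the corn oil arrays it was 0.11 and 0.16, with 46.5% and 62.8% lower.

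Cth, the second enzyme of the route, was at 1.66, 1.91 and 2.05 with corn oil, against 1.98, 2.41 and 2.52 with chlorothalonil. Chlorothalonil replicate 1 lay below corn oil replicate 3, so the groups overlapped. Its log2 fold change of 0.43 ± 0.17 (SE, n = 3 per group), or 1.35-fold, had an unadjusted p of 0.0498 and an adjusted p of 0.26 in limma. The 95% interval runs from 1.00-fold to 1.81-fold.

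Gclc, the catalytic ligase subunit, was bright and spread more than 98.6% of tested probes over the corn oil arrays. On probe A_64_P056846 it had log2 signals of 4.60, 6.46 and 6.60 with corn oil and of 6.39, 6.28 and 7.29 with chlorothalonil. On probe A_44_P228874 the values were −0.19, 1.83 and 2.07 with corn oil and 1.71, 1.61 and 2.68 with chlorothalonil. Both probes put corn oil replicate 1 far below the other 5 arrays and chlorothalonil replicate 3 above them, and the groups overlapped. After each probe was centred on its own mean, the 2 differed by at most 0.14 on any array.

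The gap within the corn oil group was wider than that between the groups. A corn oil range wider than the difference of group means was also seen for Gclm, Gss, Oplah and both Cbs probes, but not for Cth. The mean of corn oil replicates 2 and 3 was 3.82-fold that of replicate 1 on the first probe and 4.40-fold on the second. Chlorothalonil against corn oil gave a log2 fold change of 0.76 ± 0.60 (SE, n = 3 per group), or 1.70-fold, with a limma adjusted p of 0.54 on the first probe, and 0.76 ± 0.66 with 0.581 on the second. The 95% interval on the first probe reaches from 0.616-fold to 4.68-fold, so it covers both a fall and a rise. Without corn oil replicate 1 the log2 fold change was 0.12 ± 0.33 on the first probe and 0.05 ± 0.35 on the second, with intervals from 0.605-fold to 1.95-fold and from 0.551-fold to 1.94-fold. Without chlorothalonil replicate 3 it was 0.44 ± 0.67 and 0.42 ± 0.74.

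**Figure D2:**
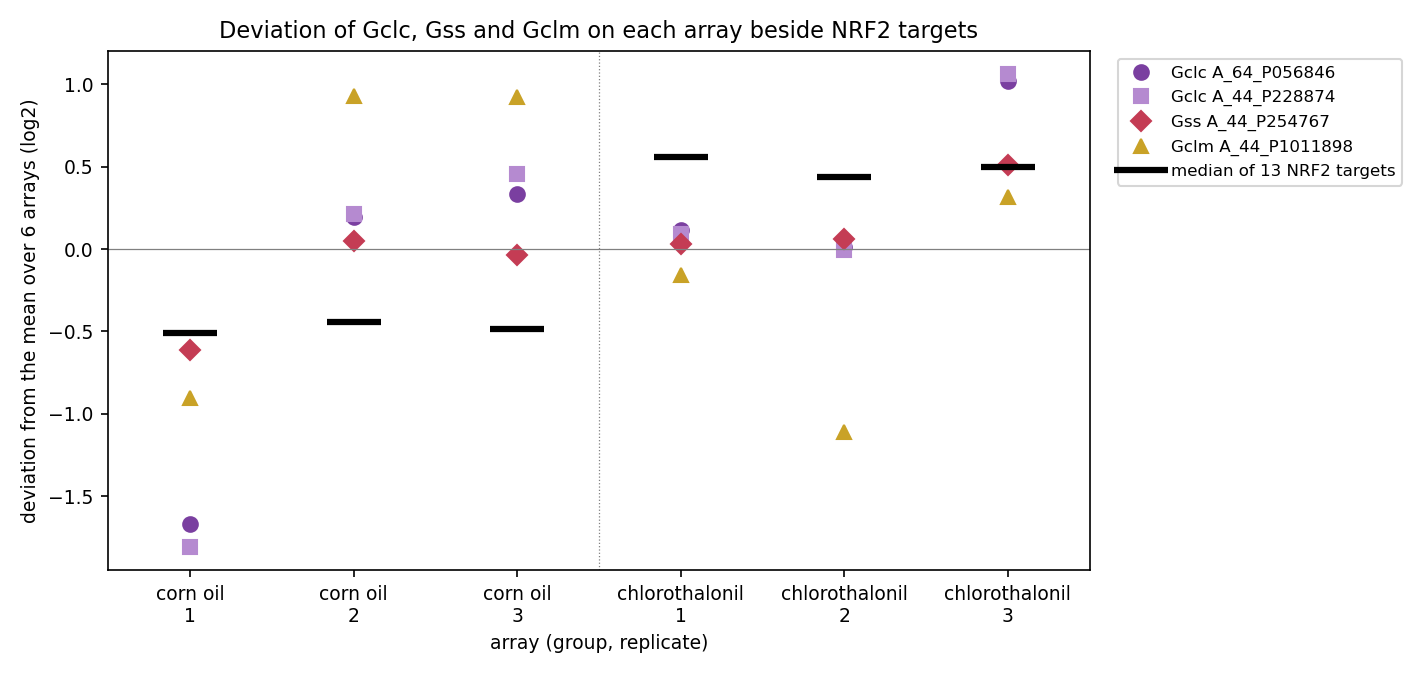
Deviation of each log2 signal from its own mean over the 6 arrays (vertical axis) by array (horizontal axis), for both Gclc probes, Gss and Gclm, with a black bar for the median deviation of 13 NRF2 targets outside glutathione synthesis. The bars lie near −0.5 on all 3 corn oil arrays and near 0.5 on all 3 chlorothalonil arrays, while Gclc is low only on corn oil replicate 1.

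The median deviation of NRF2 targets outside glutathione synthesis from each gene's mean was −0.51, −0.45 and −0.49 on corn oil replicates 1 to 3 and 0.56, 0.44 and 0.50 on chlorothalonil replicates 1 to 3. Single genes of the list varied more than this median over the corn oil animals, with Srxn1, a sulfiredoxin chosen after its values were seen, at 2.13, 0.86 and 1.46. Among probes well above background on all 6 arrays, 298 of 36888, or 0.808%, were at least 1 log2 unit below both other corn oil arrays in corn oil replicate 1, against 0.130% to 0.206% for the other 5 arrays compared within their groups. Upward, corn oil replicate 3 stood out, with 268 probes, or 0.727%, at least 1 log2 unit above both others. The other 5 arrays had 0.198% to 0.385% above.

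Genes of the proximal straight tubule, the last stretch of the proximal tubule, were in part low on the same array. In a list of 10 such genes written after the array values were seen, 4 were at least 1 log2 unit below both other corn oil arrays in corn oil replicate 1. They were Slc7a13, a cystine and acidic amino acid carrier, Slc22a7 and Slco1a6, both anion carriers, and Agt, angiotensinogen. Slc7a13 had log2 signals of 2.36, 5.40 and 5.71 with corn oil and 4.87, 4.98 and 6.30 with chlorothalonil, so it was lowest and highest on the same arrays as Gclc. The other 6 differed less, among them Slc3a1, the partner of Slc7a13, at 7.82, 7.96 and 7.91 with corn oil. None of the 10 was at 0, all passing the filter, and their summed signal relative to the 75th percentile was 270.3 to 336 with corn oil and 299 to 401 with chlorothalonil. Of 8 genes of the convoluted part, 0 were as low on corn oil replicate 1, and their summed signal was 957 to 1085 with corn oil and 1057 to 1140 with chlorothalonil. On corn oil replicate 1 the median deviation from each gene's mean was −0.30 for the straight tubule list and −0.36 for 5 loop of Henle and distal tubule markers. On chlorothalonil replicate 3 these medians were 0.32 and 0.24. Umod, Slc12a1 and Cldn16 were lower on corn oil replicate 1 than on both other corn oil arrays, and Slc12a3 and Calb1 were not. The part of tubule segments in the Gclc values was not tested.

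Gclm, the modifier subunit, had 1 dim probe, A_44_P1011898. Its processed signal was 25.8, 98.3 and 94.7 with corn oil and 42.99, 23.2 and 56.3 with chlorothalonil, with spots 1.30 to 3.66 times as bright as their surroundings. Every array had it well above background, but corn oil replicate 1 and chlorothalonil replicate 2 were lowest and the groups overlapped. The log2 signal was −3.90 ± 1.06 (SD, n = 3) with corn oil and −4.53 ± 0.73 with chlorothalonil. The log2 fold change of −0.63 ± 0.61 (SE) had a limma adjusted p of 0.626 and a 95% interval from 0.227-fold to 1.83-fold. It was −1.24 ± 0.42 without corn oil replicate 1, with an adjusted p of 0.238, and −0.24 without chlorothalonil replicate 2. With normexp background correction, which adds an offset to every signal, it was −0.20. Corn oil replicate 1 was low for both ligase subunits, but chlorothalonil replicate 2, lowest for Gclm, was not low for Gclc. On these arrays the Gclm spots were only 1.30 and 1.375 times as bright as their surroundings, so the order of the Gclm arrays is uncertain.

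Gss, which completes glutathione, was at 2.82, 3.48 and 3.40 with corn oil, against 3.47, 3.50 and 3.95 with chlorothalonil. As for Gclc, corn oil replicate 1 was lowest and chlorothalonil replicate 3 highest, over a narrower range, and the other 4 arrays lay close together. The log2 fold change was 0.40 ± 0.22 (SE, n = 3 per group), or 1.32-fold, with a limma adjusted p of 0.388 and a 95% interval from 0.907-fold to 1.92-fold. Leaving out corn oil replicate 1 gave 0.20 ± 0.17, and leaving out chlorothalonil replicate 3 gave 0.25 ± 0.22.

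Oplah, which recovers glutamate, was bright. It was at 4.29, 4.34 and 4.06 with corn oil, against 3.96, 4.06 and 4.02 with chlorothalonil. Every chlorothalonil array was below every corn oil array, but corn oil replicate 3 and chlorothalonil replicate 2 both round to 4.06. The log2 fold change was −0.22 ± 0.09 (SE, n = 3 per group) with a limma adjusted p of 0.282 and a 95% interval from 0.736-fold to 1.01-fold.

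**Figure D3:**
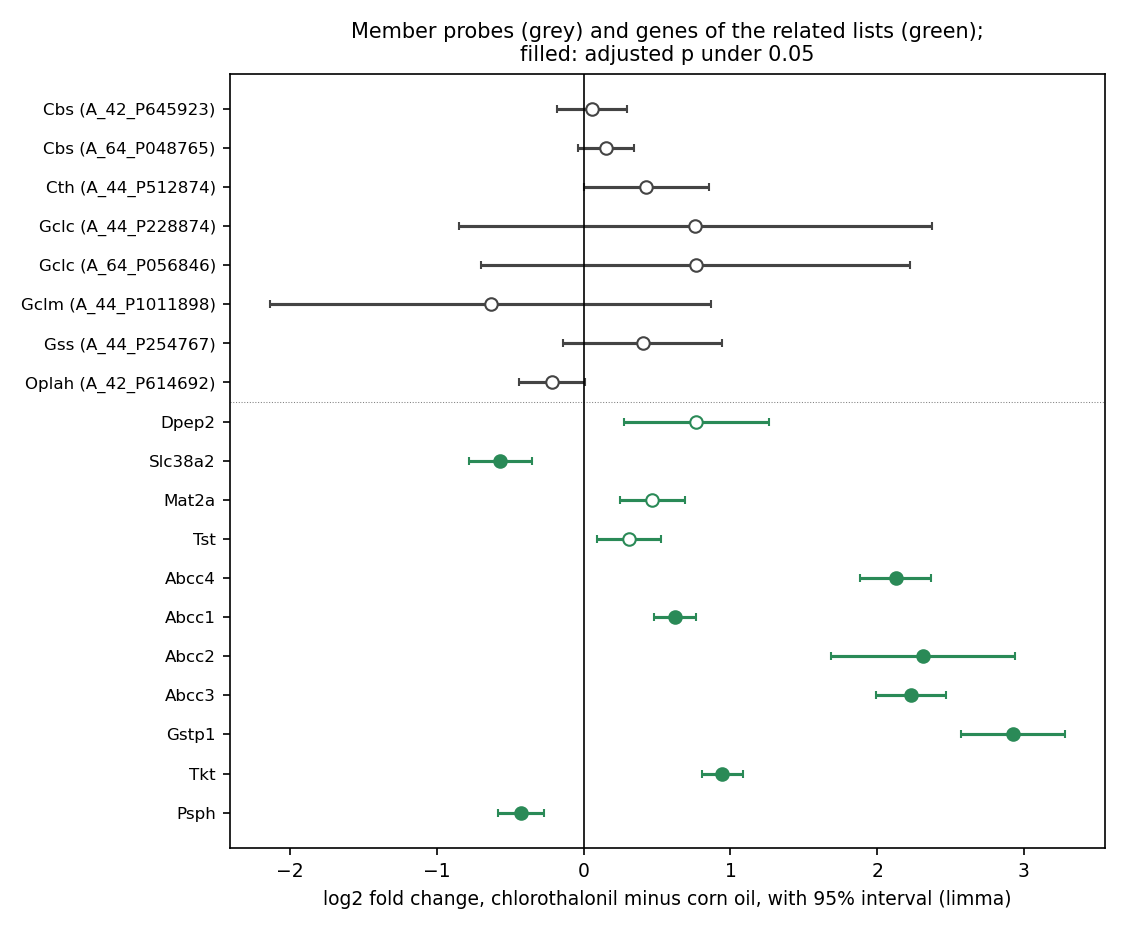
Log2 fold change of chlorothalonil against corn oil with its 95% interval from limma (horizontal axis), for the 8 tested member probes (grey) and for genes of related lists (green), filled where the adjusted p was under 0.05. The Gclc and Gclm intervals span several-fold, those of Cbs and Oplah are narrow and include 0, and the exporters Abcc2, Abcc3 and Abcc4 lie above 1.6 with their whole intervals.

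Around these 7 genes, several genes of the glutathione reduction and export list rose, most of them transporters. The lists of glutathione precursors and breakdown had a share of calls near that of all features. All lists were chosen with earlier results of these data known, so their shares are not independent of them. For these lists each gene was read on its brightest tested probe, in a table of 29115 features of which 3.12% changed, 1.30% higher and 1.82% lower, with a median log2 fold change of 0.0035. Of 9 measured genes of glutathione reduction and export, 5 rose, 0 fell and 4 did not pass, with a median of 0.61. The lowest log2 fold change of the list was −0.56, for Glrx, which did not pass. Glrx had log2 signals of 1.39, 1.98 and 1.53 with corn oil and 1.28, 1.06 and 0.88 with chlorothalonil. Abcc4, Abcc2 and Abcc1, pumps that export glutathione or its conjugates, rose by 2.13 ± 0.10 (SE, n = 3 per group), 2.31 ± 0.25 and 0.62 ± 0.06, with limma adjusted p of 0.00297, 0.0144 and 0.0108. Gsr, glutathione reductase, and Slc25a39, the mitochondrial glutathione importer, both named after their values were seen, rose by 0.62 ± 0.09 and 0.61 ± 0.08, with limma adjusted p of 0.0345 and 0.0251. The Slc25a39 call was lost whichever array was left out, with adjusted p from 0.051 to 0.0987, and the Gsr call held only where corn oil replicate 1 was the one left out, with adjusted p from 0.0478 to 0.122 over the 6. Abcc2 had 0.0466 to 0.0633 and Abcc1 0.0356 to 0.0579, while Abcc4 passed throughout, with at most 0.0262. The count of 5 was 3 without corn oil replicate 2, 2 without corn oil replicate 3, and 2, 1 and 2 without chlorothalonil replicates 1, 2 and 3.

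Of 13 measured NRF2 targets outside glutathione synthesis, 10 rose, 0 fell and 3 did not pass, with a median of 0.94. Gstp1 went from 5.55, 5.89 and 6.09 in corn oil replicates 1 to 3 to 8.82, 8.69 and 8.79 in chlorothalonil replicates 1 to 3, a rise of 2.93 ± 0.14 (SE), and its 3 probes gave 2.93 to 4.46. Its probes may also bind close relatives, so the level is uncertain. Abcc3, another exporter, rose by 2.23 ± 0.10 and Tkt, a pentose phosphate enzyme, by 0.94 ± 0.06. These values stand beside Gclc at 0.76 ± 0.60 and Gclm at −0.63 ± 0.61, and whether members differ from the other targets was not tested. The count of 10 was 5 if corn oil replicate 3 was left out, and 5, 6 and 6 without chlorothalonil replicates 1, 2 and 3.

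Precursor supply and breakdown had 1 call over 4 lists. Of 10 amino acid carriers, Slc38a2, a sodium-coupled neutral amino acid carrier, fell, with log2 signals of 1.77, 1.94 and 1.87 with corn oil and 1.42, 1.20 and 1.27 with chlorothalonil, a log2 fold change of −0.57 ± 0.09 (SE) with a limma adjusted p of 0.0346. The other tested Slc38a2 probe gave −0.34. The Slc38a2 call was lost whichever of the 6 arrays was left out, with limma adjusted p from 0.0689 to 0.114. It was also lost with the mean of a gene's probes. The methionine cycle had 0 calls in limma among 12 genes, 5 of them below 0.05 before adjustment. Mat2a, which makes S-adenosylmethionine, was at 0.47 ± 0.09 with an adjusted p of 0.0606, and Mat1a, its liver-type relative chosen after its values were seen, was lowest on corn oil replicate 1, at −5.09 against −3.26 and −3.16. Glutathione breakdown had 0 calls in limma among 12 genes, 2 of them below 0.05 before adjustment. Dpep2, a dipeptidase, was at 0.77 ± 0.20 with an adjusted p of 0.119. Ggt1, the brush border enzyme that starts glutathione breakdown, chosen after its values were seen, was at 0.23 ± 0.13. Cysteine and sulfide breakdown had 0 calls in limma among 9 genes, 2 of them below 0.05 before adjustment, with the thiosulfate sulfurtransferase Tst at 0.31 ± 0.09 and an adjusted p of 0.14. Of 12 ATF4 targets, Psph, of serine synthesis, fell, with a log2 fold change of −0.43 ± 0.06 and a limma adjusted p of 0.0327. It did not pass whichever array was left out, nor with scaling to the array median, where the adjusted p was 0.0578, and the list's median was 0.03.

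**Figure D4:**
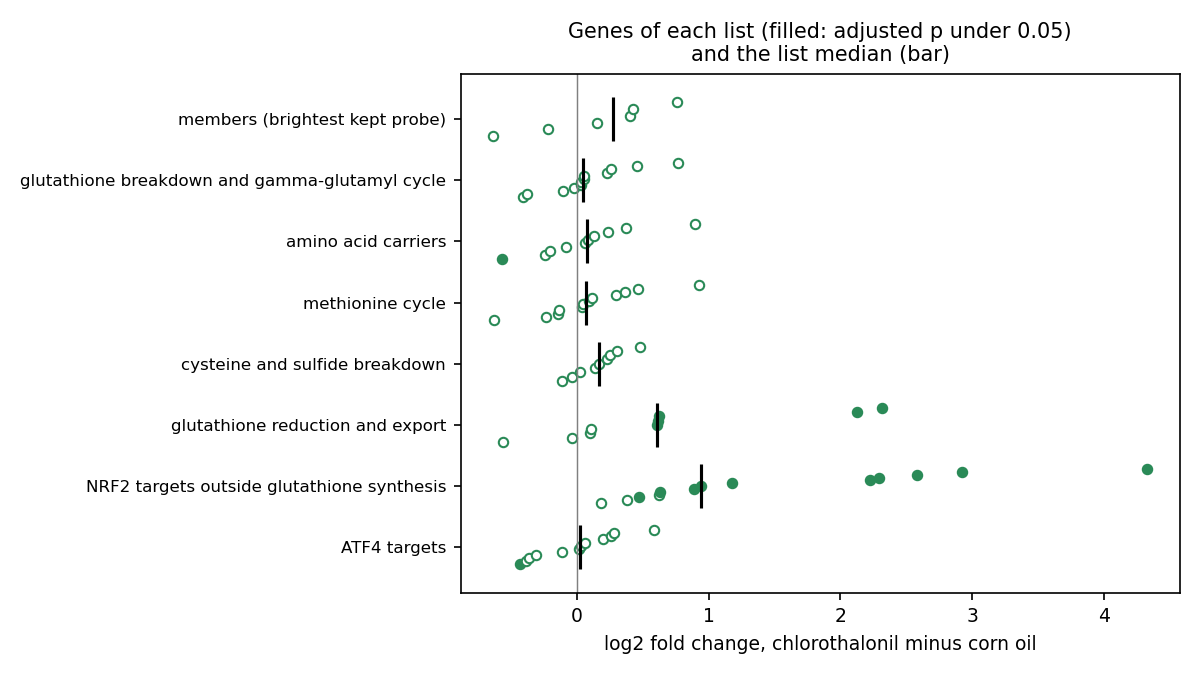
Log2 fold change of chlorothalonil against corn oil (horizontal axis) for each measured gene of the members and 7 related lists, filled where the limma adjusted p was under 0.05, with a bar at each list's median. Filled points gather in the reduction and export list (5 of 9) and the NRF2 list (10 of 13), and the members have none of 6.

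The genes most like Gclc and Gclm over the 6 arrays were sought among 11905 named genes, by the root mean square difference of log2 signals each centred on its own mean. The rule covered members with a log2 fold change of at least 0.5 in size, which Gclc and Gclm alone had among the 6 tested genes. Nearest to Gclc was Mep1b, a subunit of the brush border protease meprin, at a difference of 0.11. Mep1b had log2 signals of 1.86, 3.87 and 4.12 with corn oil and 3.63, 3.48 and 4.62 with chlorothalonil. Isg15, a ubiquitin-like protein induced by interferon, followed at 0.14, with −0.36, 1.19 and 1.51 with corn oil and 1.12, 0.98 and 1.90 with chlorothalonil. Both were lowest on corn oil replicate 1 and highest on chlorothalonil replicate 3, as Gclc was. Slc35f1, of a family of nucleotide sugar carriers, and Dhrs7l1, of the short-chain dehydrogenases, lay nearest to Gclm, at 0.21 and 0.22. None of the 4 changed in limma, with adjusted p from 0.617 to 0.798. They were picked by their profile over these same arrays, so this outcome and their order of arrays follow largely from the choice. This likeness is a description and has no test.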

How the data were processed

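RNA of renal cortex from 6 animals was measured on Agilent 1-colour (Cy3) arrays. Per the file headers, the spot intensity was extracted with Agilent Feature Extraction (version 10.7 per the submitters' processing notes), and the processed signal was background-subtracted and detrended within each array. The authors' deposited value table is a ratio of that signal to 1 constant per array. Its column medians were 0.105 to 0.112. The scaling is unstated and was found by division; it has a linear scale and is not centred.

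Here each log2 signal is log2 of the processed signal minus the array's 75th percentile over the probes other than controls. Outlier spots (0 to 9 per array) were left out. Probes were named by RefSeq transcript through a gene table of assembly GRCr8 (28206 of 61537 matched 1 gene). The array headers name another build, so no probe coordinates are given. The 2 groups were fitted without covariates by lmFit and eBayes of limma 3.58.1 (R 4.3.3), with 1 row per probe for the members and, for lists, the brightest tested probe of each gene. Probes measured on under 2 arrays of a group were left out. The method was tested on simulated data. The members and lists were chosen with earlier results of these data known, and the lists of tubule segments after the array values were seen. Genes named from a list are up to 3 past the threshold by smallest p, or the 1 with the smallest p, and further ones are said to be chosen later. The labels call the replicates biological, 1 animal each, and 3 arrays per group limit the precision.

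The alternatives tried were the deposited table, quantile normalization, median scaling, normexp on the median spot signal with an offset of 50, no filter or a stricter one, outlier spots kept, a trended robust variance prior, the mean of a gene's probes, the gene table for members, a replicate block and each array left out. Same-numbered samples correlated only weakly in their deviations, and the numbers were not taken as pairs in the main fit.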

Additional observations from a re-analysis of the deposited data

How the results depend on the processing

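No alternative gave a member probe an adjusted p under 0.05: over 126 refits of the 8 tested probes under 16 settings, 125 kept their direction and side of the threshold, with a smallest adjusted p of 0.151. The exception was the dimmer Cbs probe, whose log2 fold change over the fits leaving out 1 array ranged from −0.0197, without corn oil replicate 3, to 0.14. The Slc7a11 probes were outside these refits. Of them, A_42_P576446 had a limma adjusted p of 0.0985 with no filter on dim probes and 0.0855 without corn oil replicate 3, on signals near the background. The count of changed probes, 1064, was 186 with no filter on dim probes and 145 to 421 without 1 array. The 17 genes called over the 7 lists became 7 with no filter and 7 to 13 without 1 array. By list, with no filter on dim probes the calls were 0 for carriers, 1 for reduction and export, 6 for NRF2 targets and 0 for ATF4 targets. Without 1 array they were 0 for carriers, 1 to 4 for reduction and export, 5 to 9 for NRF2 targets and 0 for ATF4 targets. The methionine cycle had 1 call, against 0, with median scaling, with normexp, with the trended robust prior and with the mean of a gene's probes. The carriers had 0 with that mean, and ATF4 targets had 0 with median scaling and 2 with the trended robust prior. With the replicate block, 17 probes were called, and 0 of the 7 lists' genes: 0 for carriers, reduction and export, NRF2 targets and ATF4 targets. Same-numbered samples correlated in their deviations at 0.10, 0.03 and 0.05, and samples of unlike number at −0.07 to 0.04. Each sample correlated best with its own number except corn oil replicate 2, which had 0.04 with chlorothalonil replicate 3. Whether the numbers mark pairs was not tested. Among single genes the sign turned for Atf4 and Slc7a13: Atf4, at 0.02, had −0.0219 with quantile normalization and −0.00571 to 0.0348 without 1 array, lowest without chlorothalonil replicate 1, and Slc7a13, at 0.89, had −0.172 to 1.51, lowest without corn oil replicate 1. Signal over background limits what can be said of Slc7a11 and Gclm, and the cause of the other changes was not tested.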
